A study of Mus musculus with 6 samples.

Results

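The genes described here are the ligands, receptors, secreted modulators and intracellular relay proteins of the Wnt pathway, in hearts of mouse embryos in which the miRNA-processing enzyme Dicer had been inactivated and in control hearts. A list of 47 genes was matched to the array's platform annotation by symbol. It gave 51 probes of 45 genes, out of 21676 spots with 1 gene and 36227 spots in all, and no probe was listed for Dvl2 or Tcf7. Tissue was heart dissected at embryonic day 11.5, from 3 mutant samples and 3 control samples, each hybridised to its own single-colour CodeLink array. In the mutants Dicer was inactivated by a Cre recombinase knocked into the Nkx2.5 locus, so cells outside that lineage keep the gene. No label names the strain, the alleles the controls carry, or whether a sample was 1 embryo or a pool. The p-values therefore cover the variation among these samples only, and part of it may be technical.

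Wnt ligands are secreted lipid-modified proteins that bind Frizzled receptors together with the co-receptors Lrp5 and Lrp6. In the canonical branch this stops a cytoplasmic complex of Axin, Apc and Gsk3b from marking beta-catenin for destruction, and beta-catenin then acts in the nucleus with Tcf and Lef proteins. Other branches act through the same receptors on cell polarity and movement. In the embryonic heart the canonical branch is known for keeping second heart field progenitors dividing, and Wnt5a and Wnt11 are known for their part in outflow tract development.

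The letters CTTTGA, the core that Tcf and Lef proteins bind, were searched on both strands in RefSeq promoter windows of GRCm38.p6, which run from 250 bases before to 50 bases after a start. Of the 33 listed genes with a window, 7 held the letters in at least 1 window (21.2%), against 18.2% of all 27025 genes with a window. The window of Dkk1 and 1 window of Lef1, which are themselves known Wnt target genes, held 2 matches each, and 1 window of the cardiac ligand Wnt11 held 1. These were picked to be shown, 5′ to 3′ on the gene's strand, with the matches on either strand in capitals. For Frzb, Fzd1, Gsk3b and Wnt5b, 1 window each held 1 match and is not shown. The Lef1 window belongs to a start inside the gene. The other windows of Lef1 and Wnt11 held no match. A match is only a run of letters in the window.
Dkk1 (chr19:30549447-30549746, minus strand): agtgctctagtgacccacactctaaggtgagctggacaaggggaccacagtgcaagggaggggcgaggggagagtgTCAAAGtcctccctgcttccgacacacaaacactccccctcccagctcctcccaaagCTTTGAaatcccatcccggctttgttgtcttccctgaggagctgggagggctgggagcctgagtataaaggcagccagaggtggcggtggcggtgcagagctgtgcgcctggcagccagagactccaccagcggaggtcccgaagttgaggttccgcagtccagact
Lef1 (chr3:131156044-131156343, plus strand): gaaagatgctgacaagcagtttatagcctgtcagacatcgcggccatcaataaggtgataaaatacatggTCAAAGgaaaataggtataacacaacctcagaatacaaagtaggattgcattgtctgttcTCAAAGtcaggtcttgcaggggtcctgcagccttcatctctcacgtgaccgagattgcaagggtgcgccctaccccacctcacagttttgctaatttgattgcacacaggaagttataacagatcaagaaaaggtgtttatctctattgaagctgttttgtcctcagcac
Wnt11 (chr7:98834862-98835161, plus strand): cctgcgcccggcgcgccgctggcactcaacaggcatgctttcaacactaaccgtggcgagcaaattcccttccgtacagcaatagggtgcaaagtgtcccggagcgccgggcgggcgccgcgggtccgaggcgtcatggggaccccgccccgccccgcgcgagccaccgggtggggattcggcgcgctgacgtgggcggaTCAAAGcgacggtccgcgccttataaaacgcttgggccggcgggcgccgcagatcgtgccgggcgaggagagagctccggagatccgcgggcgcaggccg

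Most Wnt pathway genes gave a signal above background in the heart. Levels are given as log2 intensity after background correction and quantile normalization, and levels of different probes are not compared. Each gene is given by its brightest probe. It was tested when at least 3 of the 6 arrays flagged that probe as above background, which held for 42 genes, and for 37 of them all 6 arrays did so. Axin2, a feedback gene widely read as a sign of canonical signalling, was near background on all 6 arrays, so no difference can be given for it. Its values were 5.87, 5.86 and 5.88 in the mutants, against 5.86, 5.96 and 5.74 in the controls. Wnt7b was above background on mutant 2 alone, and the Fzd8 spot was masked on every array. Of the genes tested, Wnt5a was above background on 3 mutant arrays and 1 control array, Wnt16 on 1 mutant array and 3 control arrays, and Dkk1 and Fzd6 on 2 arrays of each group. Fzd9 was near background on 1 mutant array.

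The arrays themselves carried the labelled tissue and the labelled genotype, with a limit. All 7 listed cardiomyocyte genes were tested, with array medians of -0.02, 0.11 and -0.03 in the mutants, against -0.32, 0.03 and 0.44 in the controls, as deviations from each gene's mean. Actc1 and Myl7 lay between 14.90 and 15.22 on every array, though their spots were flagged irregular or contaminated on 6 and 5 arrays. At the bright end of the scale, quantile normalization draws the arrays together, so this evenness does not measure the amount of heart tissue. Myh7 ran from 9.76 on mutant 1 to 11.31 on control 3, and Myh6 was near background on 2 control arrays. Dicer1 measured 6.74, 6.73 and 6.68 in the mutants, against 7.82, 7.63 and 7.71 in the controls, and passed limma's test (0.498-fold, adjusted p = 0.036). Over all probes, control 3 correlated with mutant 2 at 0.984 and with mutant 1 at 0.979, and with controls 2 and 1 at 0.971 and 0.955. On the first principal component (54.1% of the variance) mutants 1 to 3 scored -18.3, -30.1 and 5.63, and controls 1 to 3 scored 37.3, 26.3 and -20.8.

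None of the 42 tested genes passed limma's test at an adjusted p under 0.05, where 9 of 17727 probes passed (0.0508%). At an unadjusted p under 0.05 there were 2 of the 42, against 10% of all probes. The mutant and control values did not overlap in 5 of the 42, against 15.1% of all probes. Differences, mutant minus control, were positive in 17 genes and negative in 25, with a median of -0.03, beside a median of 0.01 over all 15011 genes tested by their brightest probe. They ranged from -0.66 for Sfrp2 to 0.52 for Wnt2. The 95% interval lay within a 2-fold change in either direction for 39 of the 42 genes, against 90.5% of all genes, the exceptions being Wnt2, Fzd7 and Sfrp2. It lay within 1.5-fold for 31 of the 42, against 66.8% of all genes. The offset in the background correction narrows the intervals of dim probes and draws their differences toward 0. With the authors' normalized intensity, which carries none, 31 of the 42 lay within 2-fold, against 79% of all genes. Values given below as without the offset are on that intensity. It also differs from the main values in its background subtraction and in having no quantile normalization. A shift between the 2 cannot be put down to the offset alone. In bulk tissue, fewer cells of a type and less RNA per cell cannot be told apart.

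**Figure D1:**
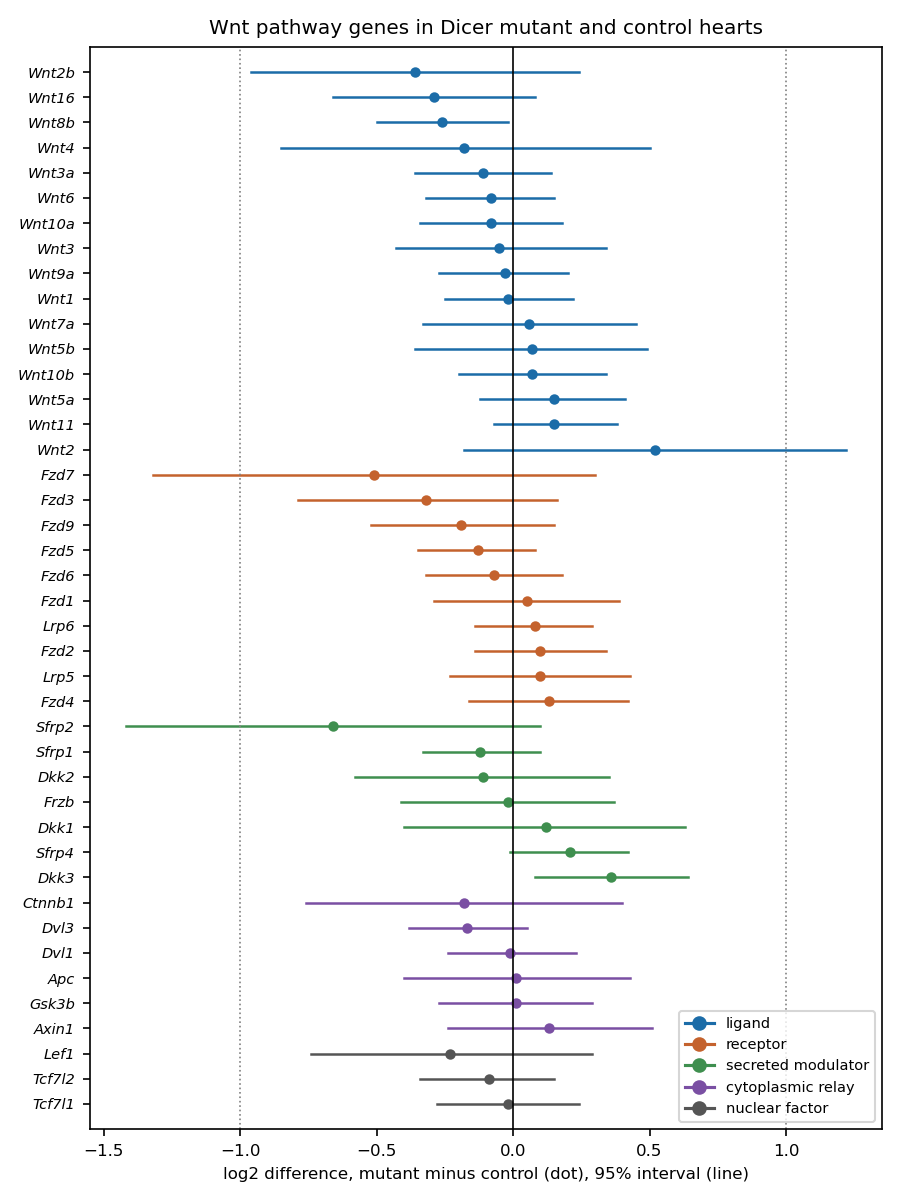
Log2 difference between mutant and control hearts (dot, mutant minus control, x axis) with its 95% interval (line) for the 42 Wnt pathway genes tested, coloured by role; dotted lines mark a 2-fold change. Only the intervals of Dkk3 and Wnt8b leave out 0, before adjustment over all probes, and those of Wnt2, Fzd7 and Sfrp2 reach past 2-fold.

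The ligand genes as a group showed no common direction. Of 17 listed, 16 were tested, none passed, 6 had a positive and 10 a negative difference, and their median was -0.04. Wnt2, a ligand of the inflow pole of the developing heart and of the lung field, had the highest difference and the widest interval among them. Its levels were 7.24, 7.50 and 6.34 in the mutants, against 6.63, 6.57 and 6.32 in the controls. Mutants 1 and 2 lay above every control, while mutant 3 lay at the level of control 3. This gave a log2 difference of 0.52 ± 0.29 (SE, 3 arrays each), or 1.43-fold with a 95% interval of 0.882 to 2.33 (limma adjusted p = 0.584). Without the offset it was 0.88 ± 0.55. Isl1, a transcription factor gene of second heart field progenitors, is named after its values were seen. It measured 7.87, 7.74 and 6.88 in the mutants, against 7.29, 7.22 and 7.28 in the controls. Mutants 1 and 2 again lay above every control, but mutant 3 lay below every control. Isl1 stands in a list of 6 pharyngeal and muscle precursor genes, of which 5 were tested. In Fgf10, Myf5, Myod1 and Tcf21 of that list, mutants 1 and 2 did not both lie above every control. The list's array medians, as deviations from each gene's mean, were 0.00, -0.11 and -0.05 in the mutants, against 0.12, 0.05 and -0.10 in the controls. Whether the share of such cells differed between arrays was not tested.

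Both noncanonical outflow tract ligands were dim. Wnt11 measured 6.85, 6.70 and 6.89 in the mutants, against 6.71, 6.61 and 6.66 in the controls. Mutant 2 fell between the control values, so the groups overlapped. Wnt11 thus had a log2 difference of 0.15 ± 0.09 (SE, limma adjusted p = 0.598), and the interval, 0.955 to 1.3-fold, leaves room for only a small change on this scale. Without the offset the difference was 0.28 ± 0.16. For Wnt5a the values were 6.27, 6.39 and 6.57 in the mutants, against 6.29, 6.17 and 6.33 in the controls, of which controls 1 and 2 were flagged near background. Mutant 1 lay below controls 1 and 3, and the log2 difference was 0.15 ± 0.11 (SE, adjusted p = 0.667), or 0.42 ± 0.26 without the offset.

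Wnt8b, known as a ligand of the developing forebrain, was the only ligand gene whose groups did not overlap. It measured 6.59, 6.64 and 6.76 in the mutants, against 7.04, 6.91 and 6.81 in the controls. Mutant 3 and control 3 were separated by 0.05. The log2 difference was -0.26 ± 0.10 (SE), or 0.836-fold with an interval of 0.707 to 0.989 (limma adjusted p = 0.47). Without the offset it was -0.53 ± 0.19. Wnt16 gave -0.29 ± 0.15, but on the authors' normalized intensity -1.18 ± 0.60, the only tested gene to exceed 2-fold there (adjusted p = 0.588). Its probe was near background on mutants 1 and 3.

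The controls disagreed on Wnt2b, a ligand known for forelimb and lung induction. It measured 7.63, 7.37 and 7.69 in the mutants, against 8.16, 8.26 and 7.34 in the controls. Controls 1 and 2 were the highest arrays and control 3 the lowest, and the log2 difference was -0.36 ± 0.25 (SE, adjusted p = 0.648). Wnt4 had a low value in mutant 3 alone, with 8.35, 8.29 and 7.30 in the mutants, against 8.14, 8.03 and 8.29 in the controls. The other tested ligand genes, Wnt1, Wnt3, Wnt3a, Wnt5b, Wnt6, Wnt7a, Wnt9a, Wnt10a and Wnt10b, had differences between -0.11 and 0.07. Each of these 9 intervals lay within 1.5-fold.

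**Figure D2:**
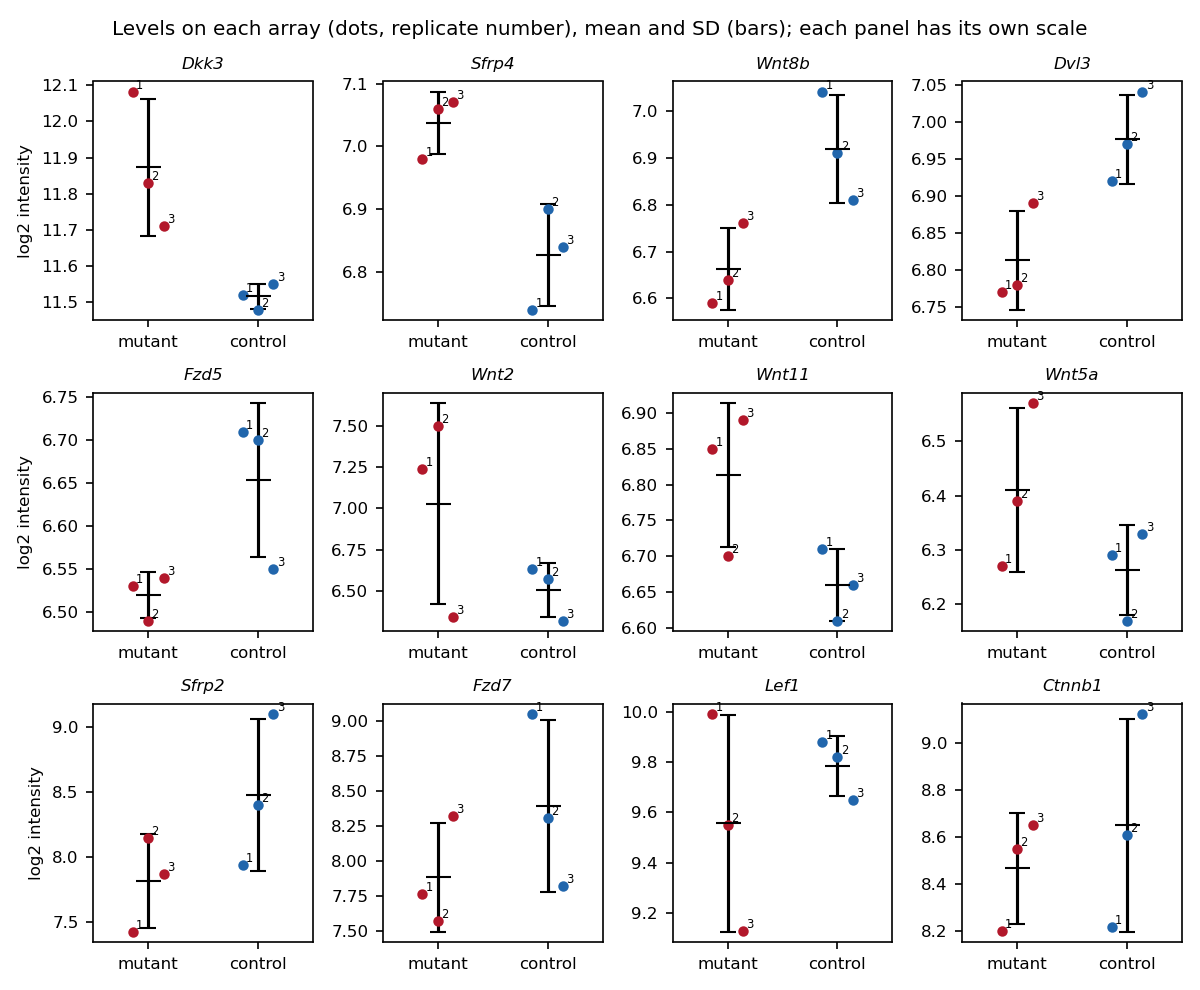
Log2 intensity (y axis, a separate scale in each panel) of 12 Wnt pathway genes in the 3 mutant (left, red) and 3 control (right, blue) arrays, numbered by replicate, with the mean and SD of each group as bars. The groups do not overlap in Dkk3, Sfrp4, Wnt8b, Dvl3 and Fzd5, whose differences are at most 0.36, and they overlap in the others.

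Receptor and co-receptor genes were measured in 10 of 11 cases, and none passed, with 5 positive and 5 negative differences and a median of -0.01. Fzd7, a Frizzled used in canonical and noncanonical signalling, spread most. Its levels were 7.76, 7.57 and 8.32 in the mutants, against 9.05, 8.31 and 7.82 in the controls. Control 1 was the highest array, and control 3 lay among the mutants, below mutant 3. The log2 difference was -0.51 ± 0.34 (SE), or 0.702-fold with an interval of 0.401 to 1.23 (limma adjusted p = 0.632). Mutants 1 and 2 and control 1 share the start of their array titles, which may be a slide or lot code. Within that code alone the log2 difference of Fzd7 was -1.39 (adjusted p = 0.0198), the only call among the 42 genes, in a comparison of 2 mutants with 1 control that called 7.56% of all probes.

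Fzd7 was highest on control 1, as were the erythroid genes as a list. The array medians of other marker lists were also highest there. These were the neural crest and neural list (0.23), the pharyngeal and muscle precursor list (0.12) and the foregut and lung bud list (0.02). The 5 erythroid genes tested of 6 listed had array medians of -0.02, -0.34 and -0.04 in the mutants, against 0.37, 0.25 and -0.16 in the controls, as deviations from each gene's mean. Of these, the embryonic globin gene Hba-x lay between 14.90 and 15.07 on every array, so erythroid RNA was present throughout. Fzd7 was about as high on mutant 3 (8.32) as on control 2 (8.31), where the erythroid medians were -0.04 and 0.25. The part of blood RNA, or of other cells, in the Fzd7 values was not tested.

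Fzd5 had the smallest difference of the genes without overlap. It measured 6.53, 6.49 and 6.54 in the mutants, against 6.71, 6.70 and 6.55 in the controls, with control 3 just above the highest mutant. The log2 difference was -0.13 ± 0.09 (SE, adjusted p = 0.636), or -0.31 ± 0.16 without the offset. Fzd4, a receptor for several Wnts and for norrin, gave 0.13 ± 0.12, and Fzd2 gave 0.10 ± 0.10. Fzd1, Fzd6 and Fzd9 gave 0.05, -0.07 and -0.19, and 1 control spot of Fzd1 was flagged irregular. Of the co-receptors needed for canonical signalling, Lrp6 measured 6.85, 6.80 and 6.71 in the mutants, against 6.68, 6.66 and 6.80 in the controls. The log2 difference of Lrp6 was 0.08 ± 0.09 (SE), and its interval reached from 0.905 to 1.23-fold. Lrp5 gave 0.10 ± 0.14, with control 3 lowest at 7.18.

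The secreted modulators held the gene with the lowest difference and the gene with the smallest p of the set. All 7 were tested and none passed, with 3 positive and 4 negative differences. Dkk3, a Dickkopf family member whose own effect on Wnt signalling is less settled than that of Dkk1, had the smallest p of the 42 genes. It measured 12.08, 11.83 and 11.71 in the mutants, against 11.52, 11.48 and 11.55 in the controls, so that every mutant lay above every control. The control values were close together (SD 0.04) and the mutant values less so (SD 0.19). Its log2 difference was 0.36 ± 0.12 (SE), or 1.28-fold with an interval of 1.06 to 1.56 (unadjusted p = 0.0196, limma adjusted p = 0.372). This probe was bright, and the value without the offset was much the same, at 0.38 ± 0.15.

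Sfrp2, a secreted Frizzled-related protein that binds Wnts, had the lowest difference. Its levels were 7.43, 8.15 and 7.87 in the mutants, against 7.94, 8.40 and 9.10 in the controls. Mutant 2 lay above control 1, so the groups overlapped, and control 3 was far above the rest. This gave a log2 difference of -0.66 ± 0.32 (SE), or 0.632-fold with an interval of 0.373 to 1.07 (limma adjusted p = 0.551). With each array left out in turn, the Sfrp2 difference ran from -0.93 without control 1 to -0.35 without control 3. It was -0.15 with the start of the title as a block, which compares mutants 1 and 2 with control 1 alone. The 6 cushion mesenchyme genes, all tested, had array medians of 0.10, 0.14 and -0.32 in the mutants, against -0.14, 0.15 and 0.35 in the controls. Of the 6, 2 had a positive and 4 a negative difference. The genes of that list, among them the collagen gene Col1a1 and Vcan, are named after their values were seen. Col1a1 measured 7.91, 8.80 and 8.03 in the mutants, against 8.35, 8.78 and 9.40 in the controls. Like Sfrp2, it was lowest on mutant 1 and highest on control 3. Sox9, Postn and Tbx20 were also highest on control 3, and Twist1 was highest on mutant 1. Postn had a log2 difference of -0.56 ± 0.12 (SE, limma adjusted p = 0.209), with every mutant below every control. Vcan alone was lowest on control 3, at 11.30, with a log2 difference of 0.61 ± 0.13 (SE, limma adjusted p = 0.186). The part of such cells in the Sfrp2 values was not tested. Sfrp4, of the same family, measured 6.98, 7.06 and 7.07 in the mutants, against 6.74, 6.90 and 6.84 in the controls, without overlap. Its log2 difference was 0.21 ± 0.09 (SE, adjusted p = 0.513), or 0.34 ± 0.15 without the offset, with 1 mutant spot flagged irregular. Sfrp1 gave opposite signs on its 2 probes, described below with the other genes that have several. Frzb, also called Sfrp3, measured 8.59, 8.38 and 8.76 in the mutants, against 8.69, 8.79 and 8.30 in the controls, and gave -0.02 ± 0.16.

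Dkk1, which blocks Lrp5 and Lrp6 and whose promoter window is printed above, lay near background. It measured 6.80, 6.38 and 5.97 in the mutants, against 6.41, 6.32 and 6.08 in the controls, with mutant 3 and control 3 flagged near background. The spread among the mutants (SD 0.42) exceeded the difference of 0.12 ± 0.22 (SE, adjusted p = 0.874). Dkk2 gave -0.11 ± 0.19, and mutant 3 was its lowest array at 6.37.

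Of 8 listed genes of the cytoplasmic relay, 6 were tested, none passed, and their differences ran from -0.18 to 0.13. Ctnnb1, which encodes beta-catenin, measured 8.20, 8.55 and 8.65 in the mutants, against 8.22, 8.61 and 9.12 in the controls. Control 3 was the highest array, and the others interleaved. Its log2 difference was -0.18 ± 0.24 (SE, limma adjusted p = 0.823), with an interval of 0.589 to 1.32-fold. Gsk3b, the kinase that marks beta-catenin for destruction, measured 9.48, 9.41 and 9.73 in the mutants, against 9.62, 9.53 and 9.44 in the controls, a difference of 0.01 ± 0.12. The scaffold gene Apc measured 7.55, 7.60 and 7.28 in the mutants, against 7.17, 7.45 and 7.76 in the controls, a difference of 0.01 ± 0.17. Dvl3, a Dishevelled protein that carries the signal from Frizzled, was the relay gene whose groups did not overlap, at 6.77, 6.78 and 6.89 in the mutants, against 6.92, 6.97 and 7.04 in the controls. Its log2 difference was -0.17 ± 0.09 (SE, adjusted p = 0.574), or -0.33 ± 0.15 without the offset. Dvl1 gave -0.01 ± 0.10 and Axin1 0.13 ± 0.16.

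The 3 nuclear factors tested all had negative differences that did not pass. Lef1, the nuclear partner of beta-catenin with the promoter matches above, measured 9.99, 9.55 and 9.13 in the mutants, against 9.88, 9.82 and 9.65 in the controls. Mutant 1 was the highest of the 6 arrays and mutant 3 the lowest. The log2 difference was -0.23 ± 0.22 (SE), or 0.854-fold with an interval of 0.597 to 1.22 (limma adjusted p = 0.737). Tcf7l2 gave -0.09 ± 0.10 and Tcf7l1 -0.02 ± 0.11.

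**Figure D3:**
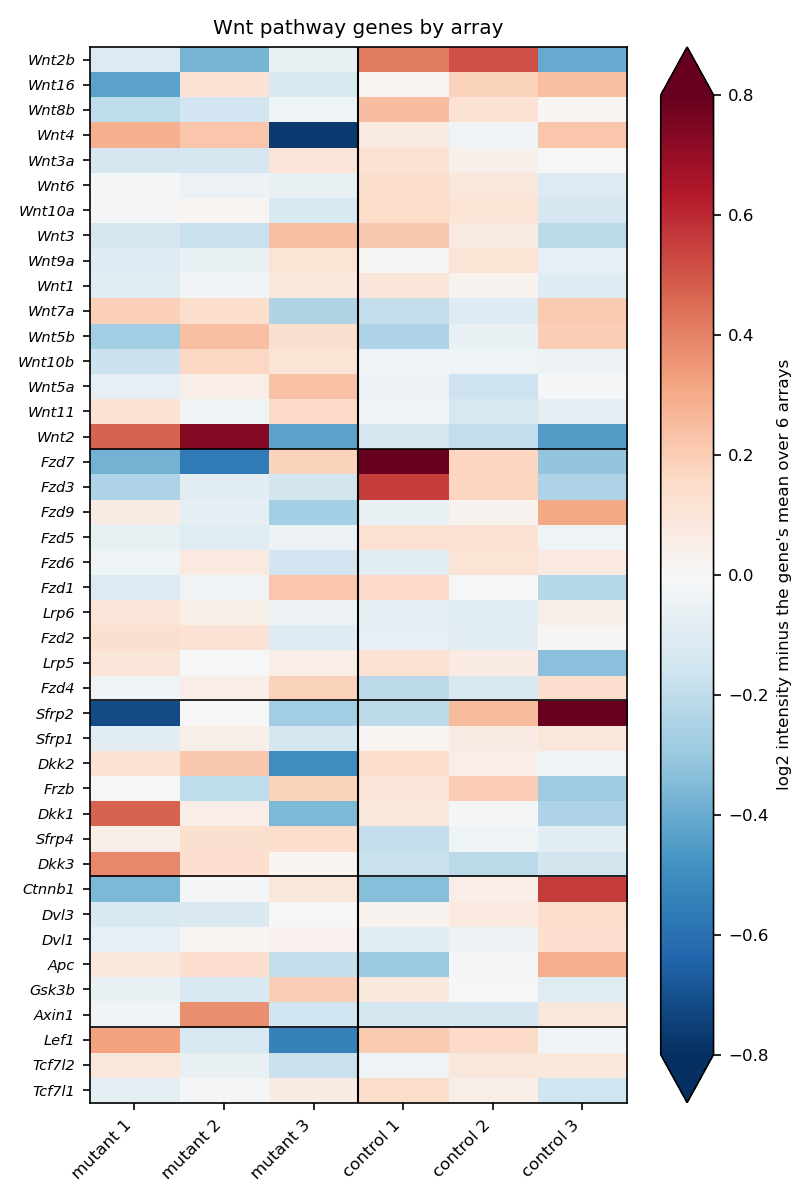
Deviation of each tested Wnt pathway gene (rows, grouped by role: ligands, receptors, secreted modulators, cytoplasmic relay, nuclear factors) from its mean over the 6 arrays, in log2 units (colour), with mutants left and controls right of the line; colours end at 0.8 in either direction. Wnt2b and Fzd3 are high in controls 1 and 2 but not in control 3, and Fzd7 is high in control 1. Wnt2 is high in mutants 1 and 2, and Wnt4, Lef1 and Dkk2 are low in mutant 3.

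Control 3 lay nearer to the mean of the mutants than to the mean of controls 1 and 2 in 28 of the 42 genes, against 61.9% of all genes. With array quality weights, 4 of the 42 genes passed (Dkk3, Wnt2, Wnt2b and Wnt8b), against 23.9% of all probes. Without control 3 the median of the 42 differences was -0.07, and none of them passed, while 1.81% of all probes did.

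Of the 4 Wnt pathway genes with several probes, Wnt4 and Lef1 gave like differences from probe to probe, and Sfrp1 and Fzd3 gave differences of both signs. For Sfrp1, a secreted Wnt binder, the brightest probe measured 12.27, 12.40 and 12.21 in the mutants, against 12.37, 12.42 and 12.44 in the controls, a log2 difference of -0.12 ± 0.09 (SE, limma adjusted p = 0.679). Its dimmer probe measured 11.70, 12.15 and 11.80 in the mutants, against 11.27, 11.51 and 11.53 in the controls, all mutants above all controls. That probe gave 0.45 ± 0.15 (SE, adjusted p = 0.374), and the mean of the 2 probes 0.17. So no direction can be given for Sfrp1. The probes of Lef1 gave -0.23 and -0.22, although mutant 3 was lowest among the mutants on the brighter probe and highest on the dimmer one, at 8.45. Fzd3, known for axon guidance and planar polarity, had 4 probes, with -0.32 on the brightest and -0.43, -0.09 and 0.30 on the others. The 2 with the lowest differences were high in controls 1 and 2 and low in control 3, and the others were not. Wnt4 gave -0.18 and -0.15, with mutant 3 lowest on both.

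**Figure D4:**
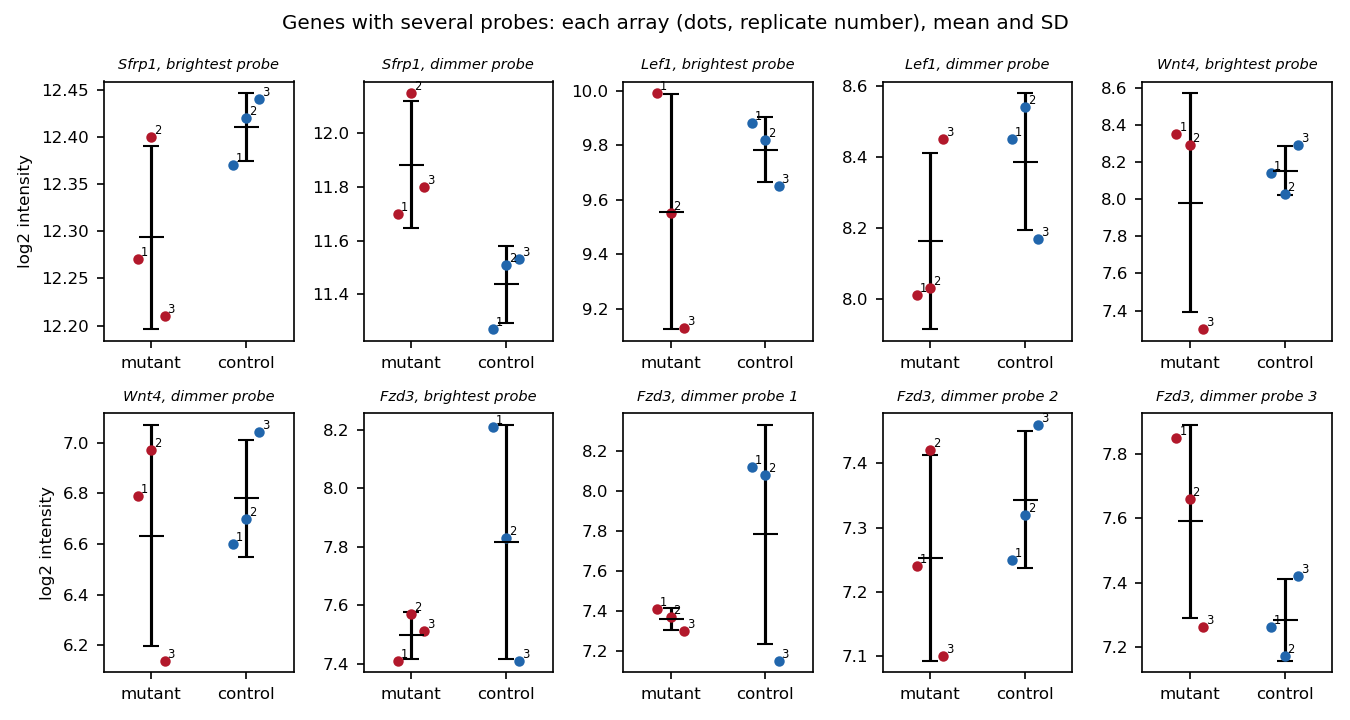
Log2 intensity (y axis, a separate scale in each panel) on every array for the 10 probes of Sfrp1, Lef1, Wnt4 and Fzd3, with mutants left and controls right, numbered by replicate, and bars for mean and SD. The 2 Sfrp1 probes differ in sign (-0.12 and 0.45), while the 2 Wnt4 probes share the low value in mutant 3.

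Other genes of the pathway, 64 in all, cover ligand secretion, further receptors, R-spondins, polarity proteins and regulators of the beta-catenin complex. Of these 55 were tested and none passed, with 30 positive and 25 negative differences and a median of 0.02. At an unadjusted p under 0.05 there were 6 of the 55, against 10% of all probes, and 9 of the 55 had groups without overlap, against 15.1% of all probes. The smallest p belonged to Apc2, a relative of Apc, at 7.18, 7.18 and 7.04 in the mutants, against 6.77, 6.80 and 6.77 in the controls (log2 difference 0.35 ± 0.09, SE, limma adjusted p = 0.251). Tnks2, a tankyrase that marks Axin for breakdown, measured 12.69, 12.54 and 12.60 in the mutants, against 11.81, 12.06 and 12.29 in the controls. Its log2 difference was 0.55 ± 0.14 (SE, adjusted p = 0.251). Rspo1, an R-spondin that strengthens Wnt signalling, is expressed in epicardium. It measured 10.76, 11.13 and 10.78 in the mutants, against 11.27, 11.73 and 12.26 in the controls, and gave -0.86 ± 0.25 (SE, adjusted p = 0.327). With each array left out in turn, the Rspo1 difference ran from -1.11 without control 1 to -0.61 without control 3. It was -0.32 with the start of the title as a block, which compares mutants 1 and 2 with control 1 alone. The 5 epicardial marker genes, all tested, had array medians of -0.01, 0.17 and -0.13 in the mutants, against 0.01, -0.02 and 0.00 in the controls, and their part in the Rspo1 value was not tested. Wls, the carrier that brings Wnt ligands to the cell surface, had the lowest difference of this list and is named after its values were seen. It measured 8.22, 8.17 and 10.22 in the mutants, against 10.74, 10.46 and 9.27 in the controls, and gave -1.29 ± 0.64 (SE, adjusted p = 0.554). Mutant 3 lay with the controls, above control 3.

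Genes known to be transcribed in response to beta-catenin in one tissue or another numbered 23 beside Axin2, Lef1 and Dkk1, and 19 were tested. None passed, 6 had a positive and 13 a negative difference, and the median was -0.16. At an unadjusted p under 0.05 there were 3 of the 19, against 10% of all probes, and 1 of the 19 had groups without overlap, against 15.1% of all probes. Nkd1, a feedback inhibitor that binds Dishevelled, measured 9.63, 9.66 and 9.90 in the mutants, against 10.53, 10.46 and 9.90 in the controls, a log2 difference of -0.56 ± 0.19 (SE, limma adjusted p = 0.38). The homeobox gene Msx1 measured 8.30, 8.25 and 8.46 in the mutants, against 9.01, 9.11 and 8.45 in the controls, a difference of -0.52 ± 0.18 (adjusted p = 0.409). Its relative Msx2 measured 9.73, 9.49 and 10.99 in the mutants, against 11.41, 11.28 and 10.62 in the controls, a difference of -1.04 ± 0.42 (adjusted p = 0.48). In all 3 genes controls 1 and 2 were the highest arrays, and control 3 lay at or below the highest mutant. The same order held in some genes of the marker lists, among them Sox2, Alas2, Ets1 and Tcf21. It did not hold in others, such as Tnnt2 and Sox9. Per array, the list's median deviation was -0.09, -0.07 and -0.09 in the mutants, against 0.10, 0.11 and -0.10 in the controls. Without control 3, Nkd1, Msx1 and Cdx2 passed as lower in the mutant, where 1.81% of all probes passed. With any other array left out, no target gene passed. The calls thus depend on leaving out the array that differed from controls 1 and 2 in these genes.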

How the data were processed

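RNA of 6 heart samples at embryonic day 11.5 (3 mutant, 3 control, grouped by the labels' descriptions) was labelled with biotin and hybridised to single-colour CodeLink arrays, per the labels' protocols. The deposited files hold spot mean and local background intensity, the subtracted intensity and the authors' normalized intensity, per the file headers. The subtracted intensity equalled mean minus background within 1e-04, and its ratio to the normalized intensity was constant within each array (66.1 to 82.8, spread at most 9.94e-05). The series' value table held the same normalized intensities on spots flagged good. No source used here names the scanner or its program.

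Spot means were corrected with normexp (offset 50, limma 3.58.1, R 4.3.3), and the 21880 spots listed with a gene were log2-transformed and normalized by quantiles. The 17727 probes above background on at least 3 arrays, with those listed for several genes among them, were tested with lmFit and eBayes. Tests were two-sided, with Benjamini-Hochberg adjustment over all of these probes. Those listed with 1 gene covered 15012 genes. The number of arrays limits the precision. The test was tried on simulated data. Gene names come from the platform annotation. Genes named in full were 13 tested members chosen by role, those whose groups did not overlap and those with an unadjusted p under 0.05. To these came the genes with the 3 smallest p of the 2 further lists. Wls, Cdx2, Wnt16, Wnt2b and the genes with several probes were added after their values were seen. So were the single marker genes set beside Wnt2, Sfrp2 and the target genes. The members and lists were chosen with earlier results of these data known.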

Additional observations from a re-analysis of the deposited data

How the results depend on the processing

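None of the 42 Wnt pathway genes passed in the main test or in 16 of 18 alternatives. These covered the subtracted and the authors' normalized intensity, the series' value table, an offset of 10, median scaling, no filter or a filter on all 6 arrays, the mean of a gene's probes, each array left out in turn and, chosen after seeing the data, irregular and contaminated spots left out. With the start of the title as a block, 1 member (Fzd7), 4 other pathway genes and 7 target genes passed, where 7.56% of all probes did. With array quality weights, which ran from 0.29 for mutant 3 to 5.85 for control 2, 4 members (Dkk3, Wnt2, Wnt2b and Wnt8b), 17 other pathway genes and 8 target genes passed, where 23.9% of all probes did, and the members' median was -0.07. With arrays left out in turn, the count of members stayed at 0, that of target genes ran from 0 to 3 and the members' median from -0.07 to -0.01, the lowest without control 3. The causes were not tested. A mutant and a control array share each number in the middle of the titles, and with that number as a replicate block 0 members passed, their median was -0.03, and 0 rather than 9 of all probes passed. The deviations of same-numbered arrays from their group means correlated at 0.0144, -0.48 and -0.381. With group means over 3 arrays, such values cannot tell whether same-numbered samples share a litter or a day. What the number stands for is not stated. Of 322 values of the 18 fully named members under these alternatives, 303 kept their direction without a call, 4 gained a call and 15 changed sign without one. Dim probes limit Wnt5a, Wnt16, Dkk1, Fzd6 and Axin2 most.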
